A study of Homo sapiens with 12 samples.

Results

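N6-methyladenosine (m6A) is the most common internal mark of messenger RNA, and 10 genes that place, remove or read it are described here in ES-2 cells, an established ovarian cancer line. The genes are the writers METTL3, METTL14, WTAP and RBM15, the erasers FTO and ALKBH5, and the readers YTHDF1, YTHDF2, YTHDF3 and YTHDC1. They were chosen by name from the 57865 features of the expression table. Of the 10 genes, 9 were found by an exact match of the symbol; YTHDC1 carries a numeric suffix there and was found by its Ensembl identifier, ENSG00000083896. The study sequenced total RNA, depleted of ribosomal RNA, from 12 libraries in 4 groups of 3. The control group (siC) received control siRNAs, and the groups siI1, siI2 and siI3 received siRNAs against IGF2BP1, IGF2BP2 and IGF2BP3, respectively. All cells, the controls included, were parental ES-2 cells exposed to an siRNA, so no untreated group enters the comparisons. The labels name no dose and no time after transfection, and give no word on separate cultures or transfections behind the libraries. The p-values below therefore measure the spread between these libraries, which may be technical.

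METTL3 is the catalytic subunit of the nuclear methyltransferase and works as a dimer with METTL14, which holds the RNA. WTAP anchors that dimer in a larger complex, and RBM15 is an RNA-binding adaptor of the complex. FTO and ALKBH5 are oxygenases that take the methyl group off again. The YTH domain binds the methylated adenosine: YTHDC1 does so in the nucleus, where it is known for roles in splicing and export, and the YTHDF proteins do so in the cytoplasm, where YTHDF2 is best known for recruiting the deadenylase CCR4-NOT. The IGF2BP proteins targeted by the siRNAs have also been described as binders of m6A-marked mRNA that stabilise their targets, which is what links the knockdowns to these genes.

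The writer complex prefers a short sequence context whose most frequent form reads GGACT in DNA letters, with the methylated A in the middle. All 10 genes held at least 1 GGACT on the sense strand of their longest coding transcript in GENCODE 29, as did 92.86% of the 11295 tested genes with a coding transcript. The counts ran from 1 in YTHDF1 to 8 in METTL14. Per kilobase the density was highest in METTL3, at 1.99, and lowest in YTHDF1, at 0.303, against a median of 0.929 over all those transcripts. Transcripts within 10% of a gene's length held the motif in 88.47% to 99.58% of cases. The occurrence nearest the stop codon is shown for the 3 genes on which the comparisons turn, with the motif in capitals and 10 bases on either side.

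METTL3: gtgcagaacaGGACTcgactacagt
WTAP: agaatggcttGGACTcaagtgtaaa
YTHDC1: cttcataaatGGACTtttaaccctc

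The METTL3 occurrence lies 1195 bases before the stop codon, the WTAP occurrence 34 bases before it, and the YTHDC1 occurrence 1125 bases after it. These are matches of letters; methylation was not measured in these libraries.

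The libraries held between 3299360 and 11304060 reads assigned to genes, so that 3 reads correspond to between 0.324 and 0.727 FPM, the depth-scaled fragment value of the deposited table and the unit of all levels below. Each siRNA target was lower in its own knockdown: IGF2BP1 stood at 25.2% of the siC mean in siI1, IGF2BP2 at 16.8% in siI2 and IGF2BP3 at 19.2% in siI3. The line's epithelial keratins KRT8 and KRT18 and the mesenchymal genes VIM and CDH2 were present in every library, whereas EPCAM, PAX8 and WT1 stayed below 3 FPM in all of them. PTPRC and CD3E, which mark leukocytes, were below 1 FPM. The endothelial gene CDH5 lay between 54.8 and 149 FPM. The control libraries were not alike in base composition: against the mean of all libraries, the slope of log2 level on GC content was -0.46 and -0.43 per 10 percentage points in siC replicates 1 and 3 and 0.02 in siC replicate 2, and the knockdown libraries lay between -0.09 and 0.21. Because this split runs through the controls, each comparison with siC is given below with and without a correction for GC content and transcript length.

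Per kilobase of the longest annotated transcript, ALKBH5 had the highest level of the 10 genes in siC, at 39.7 ± 7.02 FPM per kb (SD, n = 3). YTHDF2 followed at 18.04 ± 0.98, METTL3 at 14.9 ± 2.22 and YTHDF1 at 13.1 ± 1.38. The METTL3 value takes a length of 2523 bases, and its longest coding transcript, of 2015 bases, would give a higher one. YTHDF3 stood at 8.17 and RBM15 at 7.23, YTHDC1 at 5.01 and WTAP at 4.73. FTO came next at 1.64, on an annotated transcript of 11766 bases that lowers its value on this scale. METTL14 was lowest, at 0.287. The order thus puts an eraser at the top and METTL14, the partner of METTL3 in the same dimer, at the bottom. In siC the ranges of YTHDF2 and METTL3 overlapped, as did those of METTL3 and YTHDF1, of YTHDF3 and RBM15, and of YTHDC1 and WTAP, so these neighbours are not separated by the spread between libraries. ALKBH5, FTO and METTL14 did not overlap with any neighbour.

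**Figure D1:**
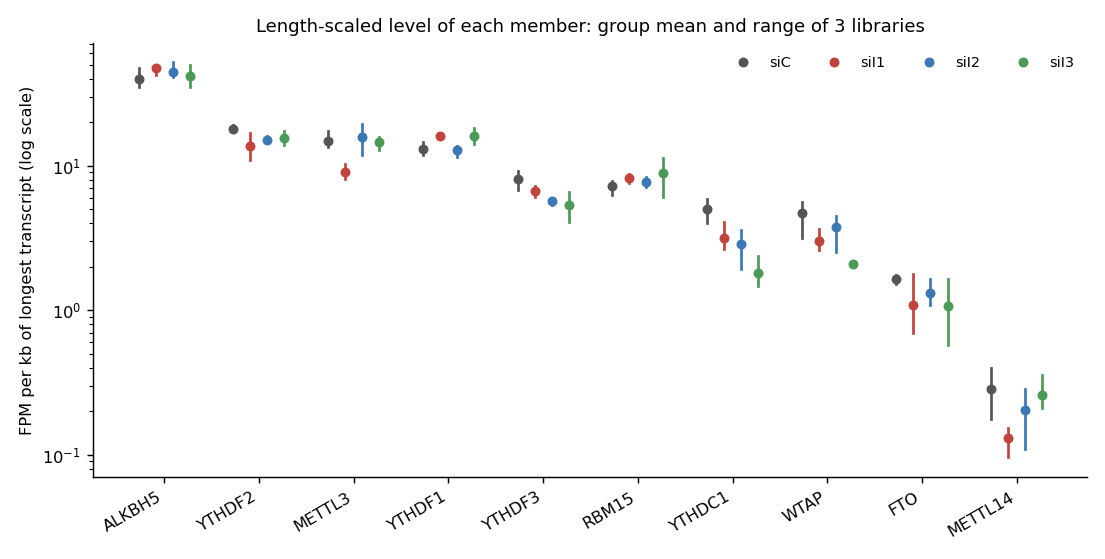
Level of each of the 10 genes in FPM per kilobase of its longest transcript (log axis), by siRNA group; points are means and bars the range of 3 libraries. ALKBH5 is highest in siC at 39.7 and METTL14 lowest at 0.287, and METTL3 in siI1 lies at 9.02, below its 14.9 in siC.

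Among the writers, METTL3 was lower in siI1 than in any other group. It read 44.1, 34.8 and 34.0 FPM in the siC libraries and 25.9, 20.5 and 21.9 FPM in the siI1 libraries, so that these groups did not overlap. It stood at 41.5, 49.1 and 29.8 FPM in siI2 and at 39.3, 32.3 and 39.9 FPM in siI3, both overlapping with siC. The siI1 mean was 60.5% of the siC mean, and the log2 change was -0.70 (SE 0.21), which just missed the threshold of 0.05 (limma, adjusted p = 0.0528). After the GC and length correction the METTL3 change was -0.26 (limma, adjusted p = 0.387). In siI2 and siI3 METTL3 stood at 0.07 and -0.01 as fitted, and at 0.51 and 0.47 after the correction (limma, adjusted p = 0.167 and 0.0968). METTL3 has a GC content of 42.8%, below the median of 49.02% over the tested genes. That value and the correction use its longest annotated transcript, of 2523 bases. The motif count used its longest coding transcript, of 2015 bases. Of the exonic bases of METTL3, 6.58% overlap the opposite-strand gene TOX4. The strand setting of the counting was not given in the sources used here.

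METTL14 was barely detected, with 3 to 23 reads in a library. Its FPM values were 2.67, 1.19 and 1.89 in siC, 0.93, 0.64 and 1.03 in siI1, 1.92, 1.47 and 0.73 in siI2, and 2.39, 1.4 and 1.42 in siI3. The siI1 libraries all lay below the siC libraries, but the log2 change of -0.62 had a standard error of 0.32 (limma, adjusted p = 0.219) and was -0.07 after the GC and length correction. In siI2 and siI3 the METTL14 values were -0.30 and -0.08 as fitted and 0.26 and 0.40 corrected. The 95% interval of METTL14 in siI1 ran from 40.8% to 104% of the control on the scale of FPM + 1.

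WTAP fell in siI3. The siC libraries read 20.4, 11.54 and 19.9 FPM and the siI3 libraries 7.86, 7.75 and 7.44 FPM. The siI3 values were tightly grouped and all lay below the lowest control, siC replicate 2. WTAP read 9.63, 13.3 and 10.3 FPM in siI1 and 15.3, 16.5 and 9.21 FPM in siI2, where the ranges overlapped with siC. The siI3 mean was 44.5% of the siC mean, and the log2 change was -1.03 (SE 0.27; limma, adjusted p = 0.0287). The call ended after the GC and length correction, where WTAP changed by -0.59 (limma, adjusted p = 0.0857). It also ended without siC replicate 1 (adjusted p = 0.148, limma), siC replicate 3 (0.131), siI3 replicate 1 (0.0871) or siI3 replicate 2 (0.1002), where the WTAP changes were -0.90, -0.92, -1.05 and -1.04 and the share of all genes called fell to between 0.646% and 1.56%. In siI1 and siI2 WTAP stood at -0.57 and -0.31 as fitted and at -0.21 and 0.08 corrected. SOD2 on the other strand shares 6.81% of its exonic bases.

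RBM15 did not pass the test in any knockdown. It read 33.3, 32.2 and 26.5 FPM in siC, 36.2, 37.1 and 32.1 FPM in siI1 and 32.6, 30.5 and 35.4 FPM in siI2. In siI3 its libraries spread more widely, at 48.3, 40.0 and 25.7 FPM, and reached both above and below all controls. The log2 changes were 0.19, 0.10 and 0.26 in siI1, siI2 and siI3, each with a standard error of 0.22. After the GC and length correction those of siI1 and siI2 turned to -0.03 and -0.04, and that of siI3 was 0.12.

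**Figure D2:**
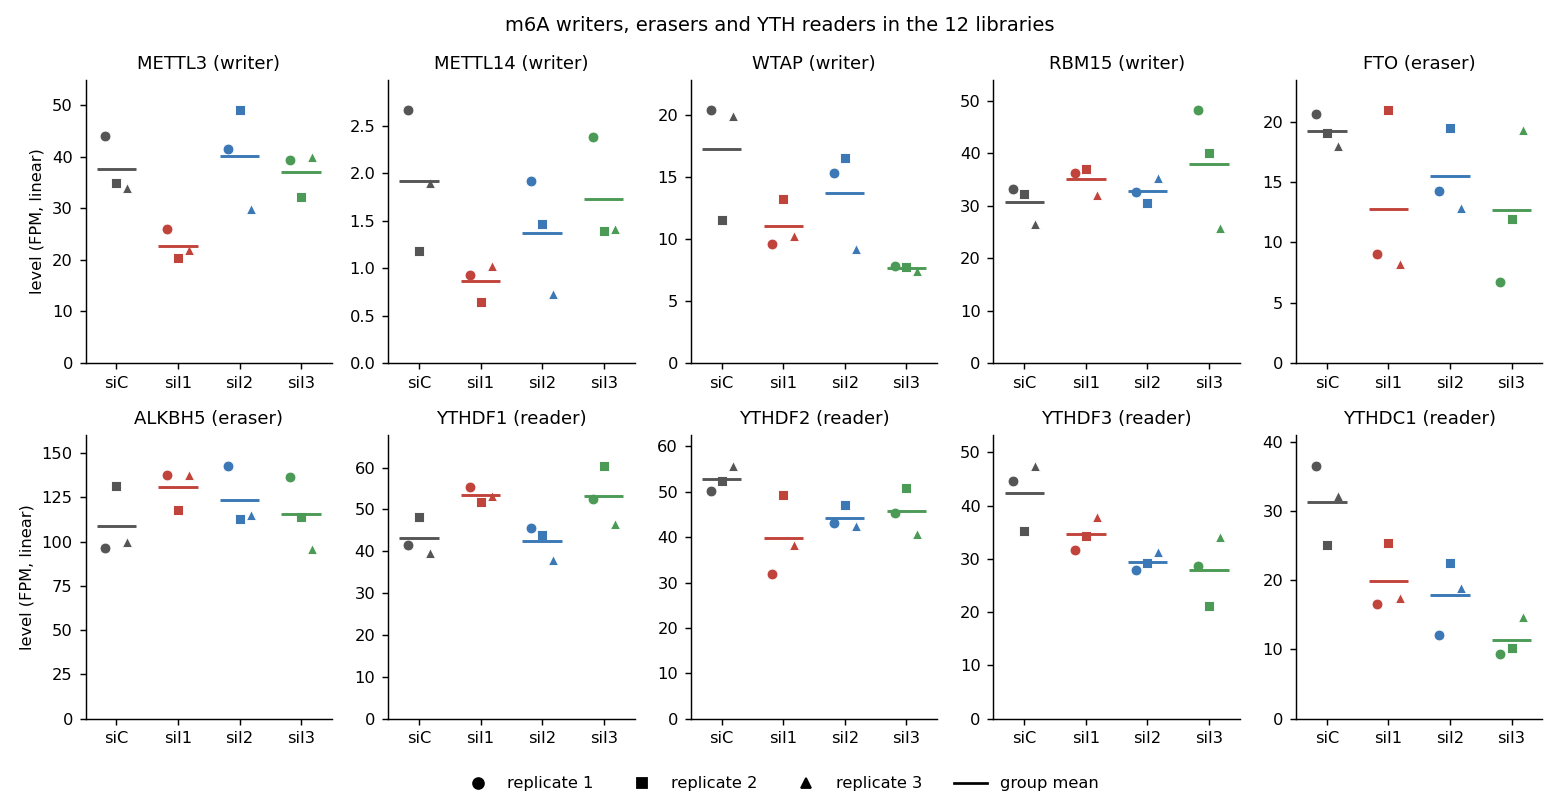
FPM of each of the 10 genes in the 12 libraries (1 panel per gene, axes from 0), grouped as siC, siI1, siI2 and siI3; symbols are libraries by replicate number and horizontal lines group means. The siI3 points of WTAP and YTHDC1 and the siI1 points of METTL3 lie below all 3 siC points.

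Neither eraser passed the test. ALKBH5 had the highest FPM of the set, with 96.1, 131 and 99.6 in siC, 137, 118 and 138 in siI1, 143, 113 and 115 in siI2, and 137, 114 and 96.0 in siI3. The siC replicate 2 value lies within the range of the knockdowns, so that ALKBH5 overlapped with siC in all 3 comparisons. Its log2 changes were 0.27, 0.19 and 0.08 in siI1, siI2 and siI3 (SE 0.19), and 0.07, 0.09 and -0.05 after the GC and length correction, so that the siI3 value turned. Annotated genes on the opposite strand cover 11.2% of the exonic bases of ALKBH5.

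FTO was even across the controls and uneven within the knockdowns. The siC libraries read 20.6, 19.1 and 18 FPM, the siI1 libraries 9.01, 20.9 and 8.21 FPM, the siI2 libraries 14.3, 19.5 and 12.9 FPM, and the siI3 libraries 6.74, 11.9 and 19.3 FPM. In each knockdown 2 libraries lay below all controls and the remaining one within or above them; the coefficient of variation was 6.89% in siC and 56.1%, 22.5% and 49.9% in siI1, siI2 and siI3. The log2 change was -0.68 in siI1, -0.31 in siI2 and -0.67 in siI3, with a standard error of 0.35 (limma, adjusted p = 0.221, 0.623 and 0.207). FTO stood at -0.57, -0.14 and -0.44 after the GC and length correction. In siI3 the 95% interval of FTO ran from 37.5% to 105% of the control on the scale of FPM + 1, which leaves room for a large decrease and for none.

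Among the readers, YTHDC1 had the largest change of the 10 genes. It read 36.5, 25.02 and 32.1 FPM in siC and 9.26, 10.2 and 14.7 FPM in siI3. All siI3 values lay below all controls, with the siI3 mean at 36.5% of the siC mean. YTHDC1 fell by 1.39 on the log2 scale in siI3 (SE 0.27; limma, adjusted p = 0.00955), and by 0.89 after the GC and length correction (limma, adjusted p = 0.0178). The 95% interval of the uncorrected change spans 25.8% to 56.4% of the control. The YTHDC1 call ended without siC replicate 1 (adjusted p = 0.0658, limma) or siC replicate 3 (0.0551), where the changes were -1.27 and -1.36 and the share of all genes called fell to 0.646% and 0.805%. The corrected YTHDC1 call ended without either of these or without siI3 replicate 1 or 2 (limma, adjusted p from 0.0593 to 0.0785), at changes of -0.94 to -0.78 and with 1.4% to 2.10% of all genes called. With siC replicate 2 as the only control, an alternative added after seeing the data, the YTHDC1 change was -1.10; that single library is assumed to vary like the other groups, and the fit called 0.109% of all genes in siI3, so the loss of the call there says little about YTHDC1.

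In the other knockdowns YTHDC1 was also lower on average, without passing the test. It read 16.6, 25.4 and 17.4 FPM in siI1, where siI1 replicate 2 exceeded siC replicate 2, and 12.1, 22.4 and 18.9 FPM in siI2, all below the controls. The log2 changes were -0.64 and -0.80 (SE 0.27; limma, adjusted p = 0.136 and 0.111), and after the GC and length correction they were -0.14 and -0.28. No exonic base of YTHDC1 is shared with another annotated gene, and its GC content is 40.3%.

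YTHDF1, a cytoplasmic reader described as promoting translation, was higher on average in siI1 and siI3 than in siC, and not in siI2. It read 41.5, 48.2 and 39.5 FPM in siC, 55.3, 51.8 and 53.2 FPM in siI1, 45.6, 43.9 and 37.8 FPM in siI2, and 52.5, 60.5 and 46.4 FPM in siI3. All siI1 libraries lay above all controls. The log2 changes of 0.31 in siI1 and 0.29 in siI3 (SE 0.18) did not pass (limma, adjusted p = 0.263 and 0.273). In siI2 the YTHDF1 value was -0.02 and turned to 0.06 and 0.07 with other scaling factors, RLE and upper quartile. The corrected YTHDF1 values were 0.22 in siI1, -0.01 in siI2 and 0.33 in siI3.

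YTHDF2, the reader tied to mRNA decay, read 50.1, 52.4 and 55.8 FPM in siC, 31.99, 49.3 and 38.3 FPM in siI1, 43.0, 47.0 and 42.4 FPM in siI2, and 45.3, 50.9 and 40.8 FPM in siI3. All libraries of siI1 and siI2 lay below the lowest control, though siI1 replicate 2 was within 1 FPM of it. The log2 changes were -0.42, -0.25 and -0.21 (SE 0.19), and none passed (limma, lowest adjusted p = 0.166, in siI1). With the GC and length correction YTHDF2 stood at -0.23, -0.01 and 0.11, so that the siI3 value turned.

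YTHDF3, described as working with both other paralogs, read 44.6, 35.2 and 47.5 FPM in siC, 31.7, 34.4 and 37.9 FPM in siI1, 27.9, 29.2 and 31.3 FPM in siI2, and 28.6, 21.1 and 34.2 FPM in siI3. Its siI2 and siI3 libraries lay below all controls. The log2 changes were -0.28, -0.50 and -0.60 (SE 0.21), and the siI3 value came closest to the threshold (limma, adjusted p = 0.0718). After the GC and length correction YTHDF3 stood at 0.29, 0.06 and -0.10, so that its direction in siI1 and siI2 turned; its GC content of 38.8% is the second lowest of the 10.

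The YTHDF paralogs can also be read against each other. Per kilobase, YTHDF1 made up 33.3% ± 3.71 (SD, n = 3) of the summed YTHDF level in the controls. Its share was 44.6% ± 4.76 after the IGF2BP1 siRNAs, 38.2% ± 2.47 after those against IGF2BP2 and 43.3% ± 2.69 after those against IGF2BP3. YTHDF2 took, in the same order, 45.9%, 37.1%, 44.9% and 42.0%, and YTHDF3 the remaining 20.8%, 18.3%, 16.9% and 14.7%. The paralog with the highest GC content, YTHDF1 at 51.9%, thus had its larger mean shares in siI1 and siI3; these shares were not put to a test, and the part of base composition in them was not tested.

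Over the 10 genes, limma called none in siI1, against 8.18% of all 13782 tested genes, and none in siI2, against 1.51%. It called 2 in siI3, WTAP and YTHDC1, both lower, where 10.6% of all tested genes were called and 8.29% were called lower. At an unadjusted p under 0.05, limma listed 3 genes in siI1 (METTL3, YTHDF2 and YTHDC1), 2 in siI2 (YTHDF3 and YTHDC1) and 3 in siI3 (WTAP, YTHDF3 and YTHDC1), where 27.6%, 22.8% and 30% of all tested genes passed that threshold. METTL3 in siI1 was called by edgeR, which called 10.1% of all genes there, and by DESeq2, which called 15.5%. Neither called a gene of the 10 in siI2, where edgeR called 1.34% of all genes and DESeq2 5.88%. In siI3 both called 2 of the 10, where edgeR called 9.94% of all genes and DESeq2 16.7%. Overlap of the libraries was counted as well. In siI1 METTL3, METTL14 and YTHDF2 lay wholly below siC and YTHDF1 wholly above it, with a background of 17.6% lower and 15.2% higher. In siI2 YTHDF2, YTHDF3 and YTHDC1 lay wholly below, with a background of 12.3%. In siI3 WTAP, YTHDF3 and YTHDC1 lay wholly below, with a background of 20%. The 3 comparisons share the siC libraries, so their values are given side by side and no likeness among them is read.

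**Figure D3:**
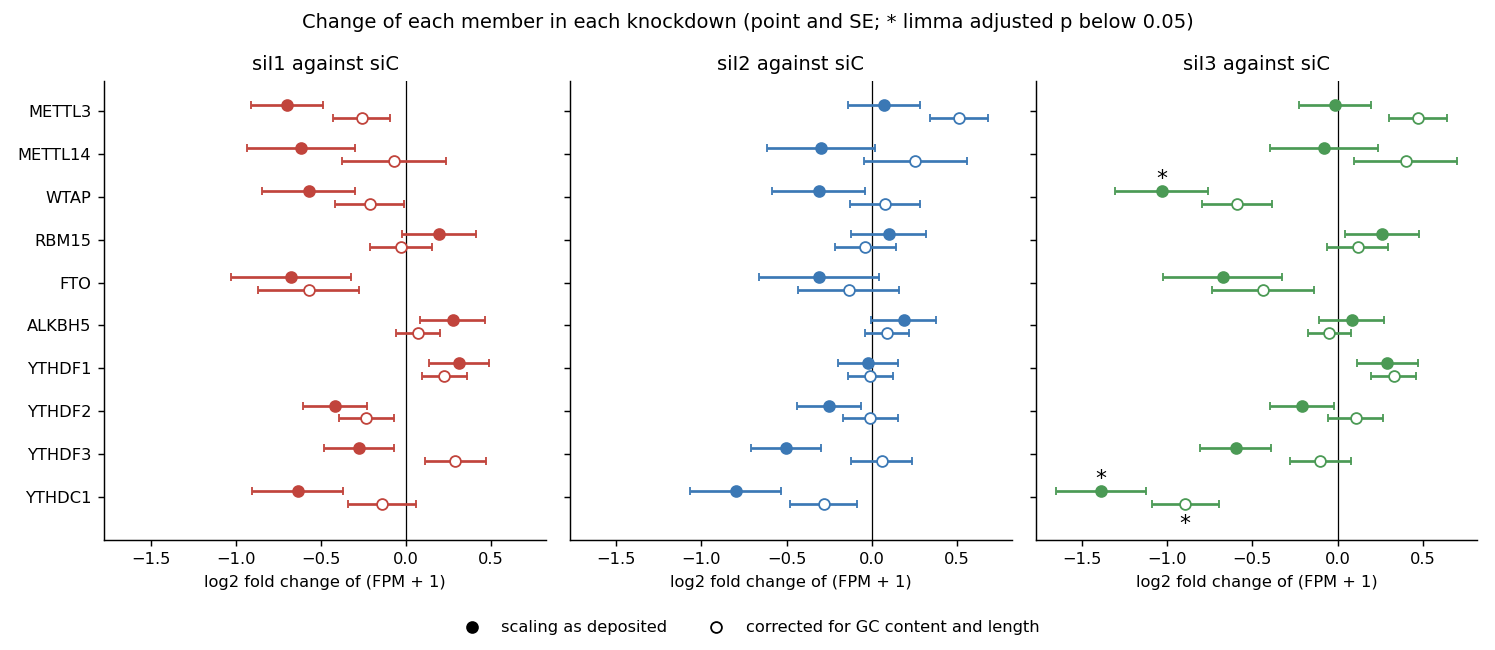
Change of each of the 10 genes in siI1, siI2 and siI3 against siC, in log2(FPM + 1), as fitted (filled) and after the GC and length correction (open); points are estimates, bars 1 standard error to either side, and an asterisk marks adjusted p below 0.05 in limma. YTHDC1 in siI3 is marked on both scales, at -1.39 and -0.89, and WTAP in siI3 only as fitted.

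The signs of the changes ran alongside GC content. Of the 10 genes, 7 have a GC content below the median of the tested genes (38.4% to 47.5%) and 3 above it, namely YTHDF1 at 51.9%, RBM15 at 54.5% and ALKBH5 at 54.9%. In siI1 and in siI3 all 7 of the former were negative and all 3 of the latter positive; in siI2 the exceptions were METTL3, at 0.07, and YTHDF1, at -0.02. The tested genes as a whole showed the same order: in the lowest GC quartile the median change was -0.54, -0.54 and -0.46 in siI1, siI2 and siI3, and in the highest quartile 0.32, 0.25 and 0.35. In the quartile that holds YTHDC1, 13.5% of genes were called lower in siI3, and in the quartile that holds WTAP 15.4%. The median change of the 10 genes was -0.49, -0.28 and -0.14, against -0.05, -0.09 and -0.05 over all tested genes; after the GC and length correction it was -0.11, 0.02 and 0.03. With the correction YTHDC1 in siI3 was called, and no other of the 10 genes in any comparison with siC (background 6.72%, 1.38% and 6.64%).

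**Figure D4:**
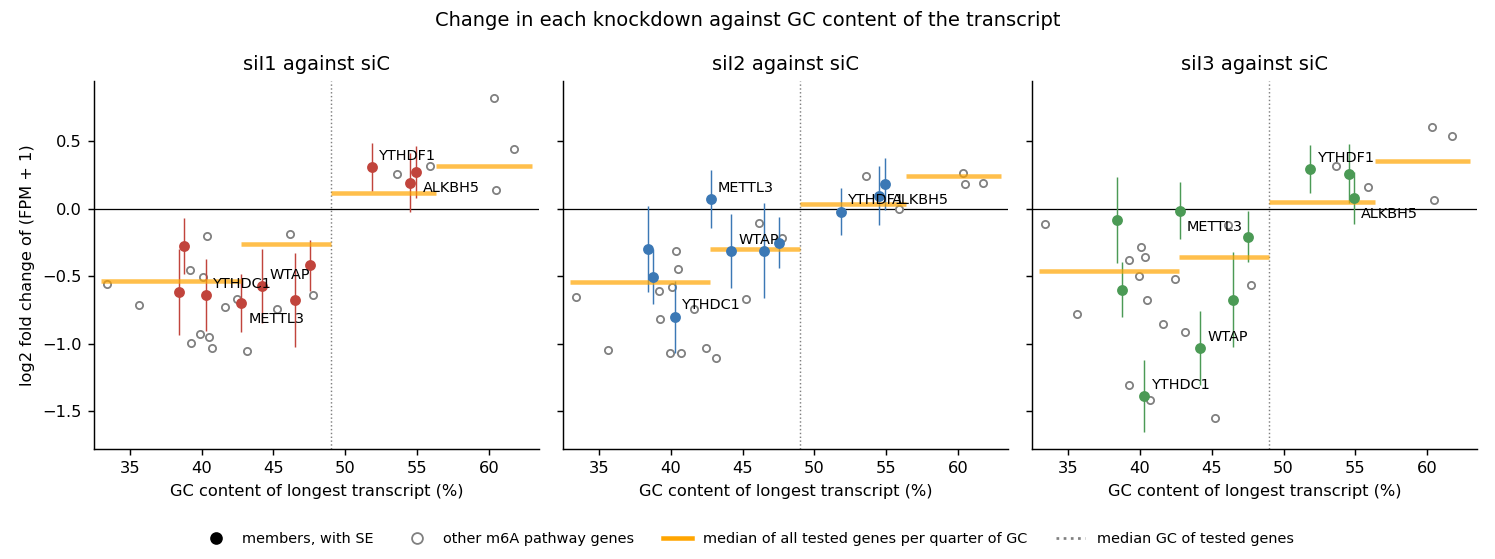
Change against siC in log2(FPM + 1) plotted on the GC content of the longest transcript, for the 10 genes (filled, with SE) and 20 other m6A genes (open), with the median of all tested genes in each GC quartile (orange) and the median GC content (dotted line at 49.02%). Genes left of the line lie mostly below 0 and genes right of it mostly above.

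The knockdowns can also be set directly against each other. The fits still held all 12 libraries, so the controls entered the estimated spread and the gene means behind the GC and length correction. METTL3 was lower in siI1 than in siI2 by 0.77 and lower than in siI3 by 0.68 on the log2 scale (SE 0.21), with no overlap of the libraries in either comparison (background of lower genes 8.16% and 12.1%). Neither passed as fitted (limma, adjusted p = 0.072 and 0.066), though edgeR called METTL3 in both (2.19% and 7.28% of all genes called) and so did DESeq2 (3.95% and 10.1%). No other gene of the 10 passed in limma either, against 2.4% of all tested genes called between siI1 and siI2, 7.05% between siI1 and siI3 and 2% between siI2 and siI3; at an unadjusted p under 0.05 the counts were 1, 2 and 2, where 14.3%, 20.6% and 14.5% of all genes passed. After the GC and length correction the METTL3 differences were -0.78 and -0.73, hardly changed in size, and both passed (limma, adjusted p = 0.0155 and 0.0105; background 4.78% and 11.6%, and 3.86% between siI2 and siI3). YTHDC1 was higher in siI1 than in siI3 by 0.75 (SE 0.27; limma, adjusted p = 0.106), and by 0.75 with the correction as well (limma, adjusted p = 0.0221), a call that ended in 4 of 6 cases when 1 library was left out, at differences of 0.64 to 0.80. WTAP was higher in siI2 than in siI3 by 0.72 (limma, adjusted p = 0.223), and by 0.67 with the correction (limma, adjusted p = 0.0859). METTL3 was not alone in lacking overlap. YTHDF1 and YTHDF3 lay wholly higher in siI1 than in siI2, as did 1838 of 13782 tested genes. Against siI3, siI1 had METTL14 wholly lower (1674 of all tested genes) and WTAP and YTHDC1 wholly higher (2194). In siI2 WTAP lay wholly above siI3 (1060) and YTHDF1 wholly below it (1219). Leaving out 1 library moved the corrected METTL3 value between -0.92 and -0.65 against siI2, where the call ended in 4 of 6 cases (2.16% to 3.49% of all genes called in those). Against siI3 it moved between -0.88 and -0.61, and the call ended only without siI1 replicate 2 (limma, adjusted p = 0.0621, with 6.76% of all genes called). With only the 6 libraries of a comparison in the fit, uncorrected METTL3 was called in neither (2.15% and 7.44% of all genes called).

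The authors' deposited table gave no gene of the 10 a false discovery rate below 0.05. In the authors' deposited table YTHDC1 had a log2 change of -1.46 in siI3 with a false discovery rate of 0.136. The authors' deposited table lists WTAP in siI3 at -1.17 (false discovery rate 0.192) and METTL3 in siI1 at -0.72 (0.506).

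A list of 20 other genes of m6A biology, all tested, was taken from textbook roles: further writer subunits and methyltransferases, further readers and the partners they recruit. The list's median change was -0.60, -0.59 and -0.44 in siI1, siI2 and siI3, against -0.05, -0.09 and -0.05 over all tested genes, and -0.16, -0.16 and -0.02 after the GC and length correction. It had 3, 1 and 4 calls, all decreases, where 8.18%, 1.51% and 10.6% of all tested genes were called and 4.42%, 0.936% and 8.29% were called lower. In siI1 EIF3A, a translation initiation factor subunit described as an m6A binder, fell by 1.05, and the nuclear RNA-binding proteins HNRNPC and HNRNPA2B1 by 0.99 and 0.92 (limma, adjusted p = 0.0252, 0.0400 and 0.0388). In siI2 EIF3A alone was called, at -1.11 (limma, adjusted p = 0.0482). In siI3 the calls were CNOT1, the scaffold of CCR4-NOT, at -1.55, VIRMA, the writer-complex scaffold, at -1.42, HNRNPC at -1.31 and EIF3A at -0.91 (limma, adjusted p between 0.0146 and 0.0398).

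GC content ran alongside these values too. All 15 list genes with GC content below the median were negative in each of the 3 knockdowns, and of the 5 above it 5, 4 and 5 were positive. After the GC and length correction EIF3A was called in siI1, at -0.70 (limma, adjusted p = 0.0420), CNOT1 in siI3 at -1.22 (0.0380) and HNRNPC in siI3 at -0.81 (0.0231), and no list gene in siI2, where 6.72%, 6.64% and 1.38% of all genes were called in siI1, siI3 and siI2. CNOT1 read 135.7, 85.2 and 122.5 FPM in siC and 25.5, 26.0 and 79.4 FPM in siI3, where replicate 3 stood near the lowest control. HNRNPC read 427.5, 244.5 and 617.2 FPM in siC and 155.1, 139.4 and 193.9 FPM in siI3, all below the controls. Each of the 8 uncorrected calls ended without siC replicate 1 and without siC replicate 3 (limma, adjusted p from 0.0824 to 0.261); the changes then ran from -1.49 to -0.66, and 0.203% to 2.10% of all genes were called in those fits.

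The genes whose levels ran most like YTHDC1 over the 12 libraries, by Pearson's r of log2(FPM + 1), were RTTN at 0.970, PHF10 at 0.959 and ANKRD1 at 0.959. For WTAP they were ZNF304 at 0.950, PRPS1 at 0.949 and TBCCD1 at 0.945. All 6 have a GC content below the median, between 37.3% and 47.3%, and the 12 points share the group structure and the GC differences among the controls.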

How the data were processed

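Total RNA of 12 ES-2 libraries was sequenced as paired reads of 101 bases. Per the submitters' processing notes, cutadapt 1.6, TopHat2 2.0.13, featureCounts 1.4.6 and edgeR 3.12 were used with hg19; settings, strand included, were not stated. The authors deposited 1 table with a normalized signal per library, the depth-scaled fragment value FPM, and with their own log2 fold changes, p-values and false discovery rates. In the deposited FPM values of each library, 100% were whole multiples of the value of 1 read within 0.01 reads, and reads were recovered from these steps. The 92 spike-in rows were left out.

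Genes with too few recovered reads were removed with edgeR 4.0.16 (filterByExpr, minimum count 10), which kept 13782. Log2(FPM + 1) was fitted with limma 3.58.1 (R 4.3.3) over all 12 libraries, with Benjamini-Hochberg adjustment over all genes and calls at 0.05; all 10 genes passed the filter. Fold changes on this scale understate the change of low genes. The correction removed a loess curve (span 0.5) on GC content and length, from GENCODE 29 transcripts, which exist for 98.0% of the tested genes; the genome build of GENCODE 29 differs from hg19, so no coordinates are given. The 10 genes, the list of other m6A genes and the tests were chosen with earlier results of these data known. Named genes outside the 10 are the called members of that list, the 3 genes most alike in pattern to each called gene, the siRNA targets, the marker genes and the genes that overlap a member on the other strand. Deviations of same-numbered libraries correlated between -0.455 and 0.447. Every pair was over 0.1 for siI1 with siI2 alone (0.181 to 0.447). The main fits paired no libraries, and the replicate block gave each number an effect shared by all groups, siC included. Alternatives covered pseudocounts, filters, scaling, edgeR and DESeq2 1.42.0 on recovered reads, a replicate block and leaving out libraries. Read counts give counting precision only and do not show variation between cultures.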

Additional observations from a re-analysis of the deposited data

How the results depend on the processing

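YTHDC1 in siI3 was called in 16 of 19 alternatives (limma, edgeR or DESeq2, adjusted p from 0.00045 to 0.627) and WTAP in siI3 in 10 of 19 (0.00552 to 0.816). In siI1, METTL3 was called, making 1 gene of the 10, with a minimum count of 30, edgeR, DESeq2, upper-quartile factors and only the 6 libraries. Of all genes, 10.98%, 10.1%, 15.5%, 9.17% and 14.8% were called in those fits, in the same order. In siI3 the count was 1 without a filter, with the replicate block, with the GC and length correction and with both (1.02%, 5.41%, 6.64% and 4.04% of all genes called). Between siI1 and siI2 it was 1 with edgeR, DESeq2, RLE or upper-quartile factors, the correction, or the correction with the block. Of all genes, 2.19%, 3.95%, 2.71%, 2.66%, 4.78% and 3.87% were called there. Between siI1 and siI3 the count was 1 with edgeR, DESeq2, RLE or upper-quartile factors (7.28%, 10.1%, 7.65% and 7.67% of all genes called). It was 2 with the correction, alone or with the block (11.6% and 10.4%). Leaving out 1 library in turn gave 0 to 2 genes in siI1, 0 to 1 in siI2, 0 to 3 in siI3, and 0 to 1 both between siI1 and siI2 and between siI1 and siI3. The share of all genes called moved with it, from 1.94% to 18.9%, 0.203% to 11.4% and 0.646% to 20.5% in siI1, siI2 and siI3. That share ran from 0.921% to 1.76% between siI1 and siI2 and from 3.96% to 8.87% between siI1 and siI3. Without siC replicate 2, where 18.9%, 11.4% and 20.5% of all genes were called, METTL3 and WTAP in siI1 (limma, adjusted p = 0.0399 and 0.0457), YTHDC1 in siI2 (0.0478) and YTHDF3 in siI3 (0.0319) were called; so were YTHDC1 in siI2 without siI2 replicate 2 (0.0418) and YTHDF3 in siI3 without siI3 replicate 3 (0.0229), with 10.3% and 19.9% of all genes called.

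For the 20 other m6A genes, siI1 gave 0 calls without a filter, with the block, and with block and correction (1.07%, 5.05% and 5.21% of all genes called). It gave 1 with the correction and 6 with only the 6 libraries (6.72% and 14.8% of all genes called). In siI2 the count was 2 with a pseudocount of 4, a minimum count of 30 or DESeq2 (1.78%, 2.29% and 5.88% of all genes called). It was 0 with a pseudocount of 0.25, no filter, edgeR, RLE or upper-quartile factors (1.33%, 0.171%, 1.34%, 1.44% and 1.49%). It was also 0 with the block, the correction, both, or only the 6 libraries (0.689%, 1.38%, 0.874% and 0.268%). In siI3 it was 1 without a filter, 2 with the block, 2 with the correction and 1 with both (1.02%, 5.41%, 6.64% and 4.04% of all genes called). Leaving out 1 library gave 0 to 6, 0 to 5 and 0 to 7 calls in siI1, siI2 and siI3. In those fits 1.94% to 18.9%, 0.203% to 11.4% and 0.646% to 20.5% of all genes were called. With siC replicate 2 only, 2 of the 3 siRNA targets were called, and 40, 1 and 15 of 13782 genes in siI1, siI2 and siI3, so lost calls under it say little.

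The reversed changes were all uncalled. With the correction, alone or with the block, ALKBH5 in siI3 was -0.048, METTL14 0.26 in siI2 and 0.40 in siI3, METTL3 0.47 in siI3, RBM15 -0.029 in siI1 and -0.038 in siI2, WTAP 0.077 in siI2, YTHDF2 0.11 in siI3, and YTHDF3 0.29 in siI1 and 0.057 in siI2. With siC replicate 2 only, ALKBH5 was -0.00622, -0.093 and -0.20 in siI1, siI2 and siI3, METTL14 0.084 and 0.30 in siI2 and siI3, METTL3 0.084 in siI3 and WTAP 0.19 in siI2. With edgeR, DESeq2, RLE and upper-quartile factors METTL3 in siI3 was 0.036, 0.039, 0.040 and 0.085, and YTHDF1 in siI2 was 0.069, 0.061, 0.062 and 0.073. Leaving out 1 library took ALKBH5 in siI3 from -0.045 to 0.22, METTL14 in siI3 from -0.27 to 0.10, METTL3 from -0.084 to 0.27 in siI2 and from -0.081 to 0.10 in siI3, and YTHDF1 in siI2 from -0.079 to 0.061. The cause of these reversals was not tested. The replicate block alone changed no other count for the 10 genes. That block covered all 12 libraries and was no paired test of siI1 and siI2. Between siI1 and siI2 all 3 libraries of each group correlated best with their own number. There the block left METTL3 uncalled (limma, adjusted p = 0.0952) and, with the correction, called (0.0214). METTL14 rests on 3 to 23 reads per library, which limits what can be seen of it.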
